A study of Sus scrofa with 24 samples.

Results

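Adult Pietrain (Pi) and adult German Landrace (DL) pigs were compared in the longissimus dorsi, the long back muscle that gives the loin. Each breed was represented by 3 pooled RNA samples, called pools a, b and c, hybridised to 6 Affymetrix porcine arrays out of 24 in the series. The other 18 arrays hold fetal longissimus muscle of both breeds, with 3 pools per breed at 35, 63 and 91 days post conception (dpc). All 23999 probe sets other than the array maker's control probe sets entered the comparison. The adult muscle was collected when the pigs were slaughtered. The labels give no treatment and do not state the number, sex or age of the adult pigs in a pool. P-values therefore measure only the spread between pools, in a fit that draws on the fetal pools too. Breed cannot be told apart from any other trait on which the 2 sets of pigs differed.

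Pietrain is a lean, heavily muscled breed known for large loins and hams and for a variant of the ryanodine receptor gene that makes pigs prone to stress and pale meat. German Landrace is a long-bodied dam-line breed. Longissimus muscle is built mainly of fast, glycolytic fibres, which carry fast myosins and draw on glycogen, with a minority of slow, oxidative fibres rich in mitochondria. Between the fibres lie fat cells, vessels, connective tissue, nerve endings and immune cells, all of which add RNA to a homogenised sample. In such samples fewer cells of a type and less RNA per cell cannot be told apart.

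All 6 adult arrays had the profile of skeletal muscle. The 9 measured genes of fast fibres averaged between 15.39 and 15.49 on the deposited log2 intensity scale in each pool, near the top of the scale at 16.1. Levels of a probe set at or below 2.31 to 2.69, depending on the array, are called background here. Pearson correlations between adult arrays, across probe sets, were 0.951 to 0.959 within DL, 0.926 to 0.942 within Pi and 0.930 to 0.949 between the breeds. The spread of single arrays about their group means was 0.528 to 0.696 in adults against 0.235 to 0.463 in fetal pools. Pi pools b and c stood apart most often, each with 267 probe sets more than 4-fold above every other adult pool, against 99 to 121 in the other 4 pools. Pool c also had 250 probe sets more than 4-fold below every other adult pool, against 60 to 99 in the others.

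Pi pool b carried the transcripts of liver. Albumin (ALB), the main plasma protein made by hepatocytes, stood at 14.54 in Pi pool b, at 2.19 and 6.02 in Pi pools a and c, and at 9.97, 8.07 and 9.22 in DL pools a, b and c. Apolipoprotein H (APOH) stood at 10.44 in Pi pool b and between 2.20 and 5.22 in the other 5 pools. Of 44 measured genes on a list of hepatocyte markers, 40 were highest in Pi pool b and 34 were there more than 4-fold above every other adult pool, against 267 of all 23999 probe sets. Their mean level was 9.99 in Pi pool b, 3.68 and 3.87 in Pi pools a and c, and 5.29, 4.32 and 4.64 in the DL pools. The summed linear intensity of the list was 115500 in Pi pool b and 4289 to 7424 in the other adult pools. The background level of this pool was 2.36, against 2.60 to 2.69 in the other adult pools. All arrays hold the same sorted values, so that level alone sets the share of probe sets at background. The share was 23.8% in this pool and 30.8% to 32.2% in the others, and it says nothing on liver transcripts. Because of the liver transcripts, each breed difference is given with all 6 adult pools and again without Pi pool b.

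**Figure D1:**
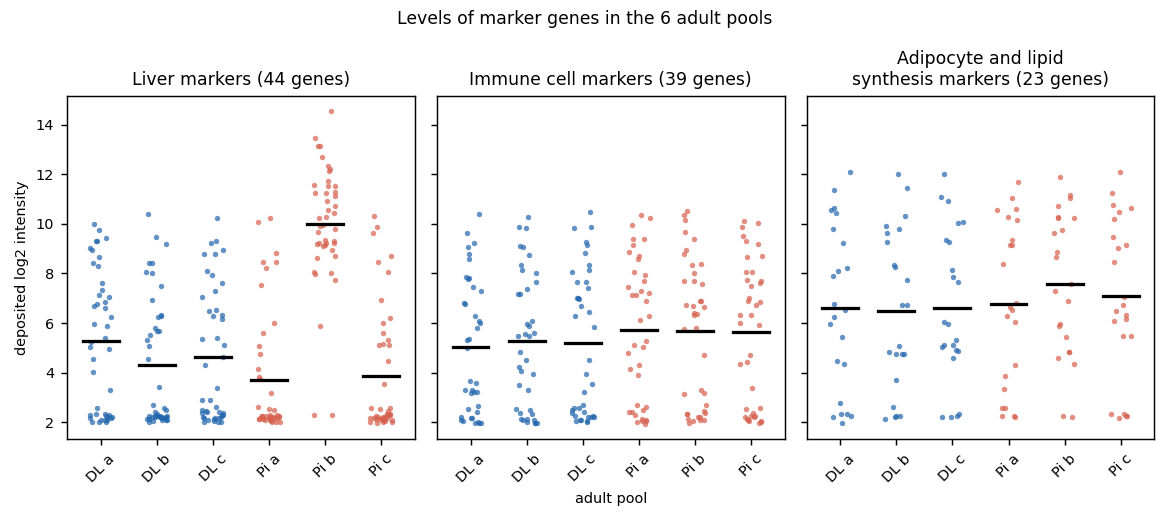
Levels of liver, immune cell and adipocyte markers in each adult pool. Each point is a gene at its deposited log2 intensity (vertical axis), the bar is the mean of the list, blue marks DL and red marks Pi. The liver list has a mean of 9.99 in Pi pool b and of 3.68 to 5.29 elsewhere, while the immune list lies at 5.05 to 5.26 in DL and 5.64 to 5.73 in Pi.

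With all 6 adult pools, 228 of 23999 probe sets (0.95%) differed between the breeds at a Benjamini-Hochberg adjusted p below 0.05 in limma, and 2362 had an unadjusted p below 0.05. Of the 228, 108 (0.45% of those tested) were higher in Pi and 120 (0.5%) were higher in DL. When the arrays were instead scaled to their spiked hybridisation controls, the median difference of all probe sets moved to -0.22 and the split became 59 higher in Pi against 165 higher in DL. Without Pi pool b, 256 probe sets (1.07%) passed, 122 higher in Pi and 134 higher in DL. A difference is said to hold when it passed in both fits in the same direction, which 142 probe sets (0.592%) did, 63 higher in Pi and 79 higher in DL. No probe set passed in opposite directions in the 2 fits. They share 5 of the 6 adult pools, so the second is no independent test.

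Loss of a call without Pi pool b was not particular to that pool. The 142 are 62.3% of the 228, whereas leaving out DL pool a, DL pool b, DL pool c, Pi pool a or Pi pool c in its place kept 49.1%, 58.3%, 75.9%, 47.8% or 54.4% of them. Of the 86 calls lost without Pi pool b, 83 were also lost without at least 1 other pool. The other 3 were ELOVL6, which elongates fatty acids, GCLC, an enzyme of glutathione synthesis, and an unnamed probe set. In all, 71 probe sets passed with every pool and without each pool in turn, 32 higher in Pi and 39 higher in DL.

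The fit takes the error of each adult difference from the spread within all 8 groups, with adult arrays weighted at 0.47 (DL) and 0.33 (Pi) against 0.908 to 2.30 for fetal groups. Fitted to the 6 adult arrays alone, with 4 residual degrees of freedom, 21 probe sets passed, 15 of them among the 228 and 12 among the 142. For 17 of the 142 (12%) all 18 fetal pools lay at background, against 9.37% of all probe sets tested. The adjusted p of the adult arrays alone is given below where it falls under 0.05, and also for CCL19 and C8B. Every named difference without a value under 0.05 missed that threshold in that fit.

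The 142 probe sets that held differed by a median of 2.41 on the log2 scale, with a range of 0.59 to 6.51. Of them, 130 differed by more than 2-fold and 92 by more than 4-fold. In 139 of them the 3 Pi pools and the 3 DL pools did not overlap, against 4174 of all probe sets (17.4%). In 24 of them 1 breed was at background in all its pools, which was DL in 21 and Pi in 3. These counts depend on the background level, which was 2.36 in Pi pool b and 2.60 to 2.69 in the other adult pools. Pi therefore counts less readily as at background in all its pools. SLC22A3, at 2.43 in Pi pool b, is an example. Of the 142, 63 carry 1 gene symbol, 6 carry several and 73 carry none. When each gene is represented by its brightest probe set, 43 genes held, 34 passed only with all pools and 24 passed only without Pi pool b.

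**Figure D2:**
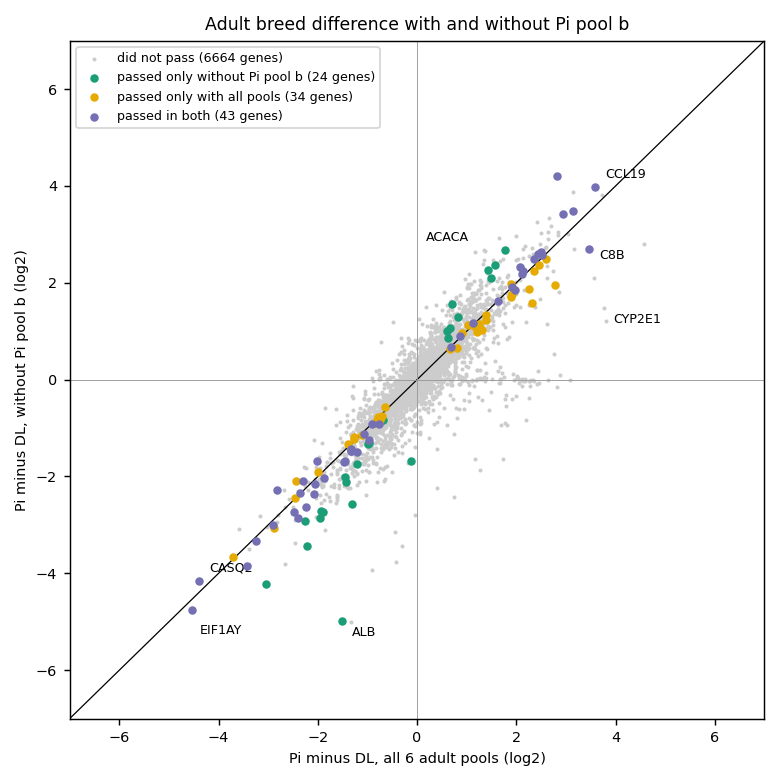
Breed difference of each gene with all 6 adult pools (horizontal axis, log2) and without Pi pool b (vertical axis, log2). Each point is a gene, shown by its brightest probe set, and the diagonal marks equal values. The 43 genes that passed in both fits run from EIF1AY at -4.53 to CCL19 at 3.59, and ALB moves from -1.51 to -4.99 without Pi pool b.

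Among probe sets with 1 gene symbol, the largest difference that held was that of EIF1AY. The RefSeq annotation of Sscrofa11.1 places this translation initiation factor on chromosome Y. Its level was 7.18, 7.51 and 7.75 in DL pools a, b and c and 2.49, 3.41 and 2.95 in Pi pools a, b and c. The Pi pools lay far below all DL pools, and pool a was at background. The difference was -4.53 ± 0.64 (SE; n = 3 and 3 pools), a 23.1-fold lower level in Pi (limma adjusted p = 0.0012, 0.0049 without Pi pool b and 0.029 in the adult arrays alone). In the 18 fetal pools of both breeds it lay between 7.35 and 9.21. It passed in each of the 13 alternative settings tried, including without each adult pool.

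Probe sets Ssc.16426.1.S1_at and Ssc.7473.1.A1_at followed the pattern of EIF1AY. They and Ssc.25738.1.S1_at, which did not follow it, were picked out after their values were seen. Probe set Ssc.16426.1.S1_at, annotated to 2 genes of which 1 lies on Y and 1 (EIF2S3, a subunit of another initiation factor) on X, stood at 8.09 to 8.39 in DL, at 2.81 to 3.80 in Pi and at 8.27 to 10.8 in all fetal pools. A second probe set with the same annotation showed no such gap, with means of 10.3 in DL and 10.7 in Pi. Unnamed probe set Ssc.7473.1.A1_at had the largest difference of all, at -6.51. It lay at 8.69 to 9.02 in DL, 2.27 to 2.55 in Pi and 8.54 to 10.1 in all fetal pools. Unnamed probe set Ssc.25738.1.S1_at had the largest difference in the other direction, at 5.06. It lay at 2.04 to 2.51 in DL, 6.99 to 7.52 in Pi and 1.98 to 2.11 in all fetal pools. All 3 passed in the adult arrays alone. Of 6 probe sets tested that the annotation places on Y alone, 1 passed and held. SRY and the LOC396706 probe sets were at background in every adult pool, so they could show no gap. CD99 and LOC100624648 lay well above background in both breeds and did not pass. Whether transcripts from X add to the signal of these probe sets was not tested, so no reading on sex is drawn from them. Of 332 probe sets on X alone, 5 passed and 3 held. Of all probe sets tested, 0.95% passed and 0.592% held. The labels do not give the sex of the pigs, so breed and sex cannot be told apart for these or any other probe sets in this report.

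Muscle proteins were among those that held as lower in Pi. CASQ2, the calsequestrin of heart and slow fibres that stores calcium in the sarcoplasmic reticulum, stood at 7.83, 8.12 and 5.65 in DL and at 3.75, 2.36 and 2.33 in Pi. The lowest DL pool was above the highest Pi pool, and Pi pools b and c were at background. The difference was -4.39 ± 0.77 (limma adjusted p = 0.0087, and 0.044 without Pi pool b). A second CASQ2 probe set was at background in all 6 adult pools. SMPX, a small protein of the muscle costamere that falls outside the rule for named genes and was chosen after its values were seen, stood at 13.28, 13.66 and 13.16 in DL and at 12.45, 12.47 and 12.45 in Pi. The difference of -0.91 ± 0.15 passed with all pools (adjusted p = 0.0059), without Pi pool b (0.023) and without each of the other pools.

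SLC22A3, TFRC, SLC26A11 and ART5 held as lower in Pi. SLC22A3, an organic cation transporter, stood at 5.43, 5.84 and 5.35 in DL and at 2.25, 2.43 and 2.17 in Pi, at or close to background. The difference was -3.25 ± 0.48 (limma adjusted p = 0.0019, 0.0094 without Pi pool b and 0.025 in the adult arrays alone), and like that of EIF1AY it passed in all 13 settings. TFRC, the transferrin receptor that brings iron into cells, stood at 7.47, 8.04 and 7.72 in DL and at 5.49, 5.04 and 5.80 in Pi, a difference of -2.29 ± 0.34 (adjusted p = 0.0023, and 0.019 without Pi pool b). It was measured well above background in every adult pool. SLC26A11, an anion transporter, differed by -2.23 ± 0.47 and missed the threshold in 6 of 13 settings. ART5, an ADP-ribosyltransferase, differed by -2.82 ± 0.50, although Pi pool c at 5.06 lay close to the DL pools at 5.45 to 6.67.

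MARCH5, NSUN3, ZUFSP and COMMD6 held on the DL side too. MARCH5, a ubiquitin ligase of the outer mitochondrial membrane, stood at 5.82, 6.08 and 6.17 in DL and at 2.16, 3.43 and 2.20 in Pi, a difference of -3.43 ± 0.40 (limma adjusted p = 0.00016, and 0.00013 without Pi pool b). NSUN3, which methylates a mitochondrial tRNA, differed by -2.48 ± 0.49. ZUFSP, a deubiquitinating enzyme, differed by -2.41 ± 0.49, and COMMD6 by -1.88 ± 0.37. The last 3 each missed the threshold in 4 of 13 settings.

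Of 3 named genes with a part in cell division, MAD2L1 and TIPIN held as lower and UBE2C as higher in Pi. MAD2L1, a spindle checkpoint protein, was lower in Pi by -2.35 ± 0.44, with 6.27, 6.35 and 5.27 in DL and 4.97, 3.60 and 2.26 in Pi. TIPIN, a replication fork protein, was lower in Pi by -2.08 ± 0.40, and missed the threshold in 5 of 13 settings. UBE2C, a ubiquitin-conjugating enzyme of mitosis, was at background in all DL pools, at 2.19 to 2.20, and at 5.01, 4.67 and 6.35 in Pi. It was at least 6.61-fold higher in Pi against the background level (limma adjusted p = 8.2e-04, and 9.3e-04 without Pi pool b). Its second probe set was at background in all 6 pools. None of the 20 measured genes on a list of cell cycle and replication genes passed with all pools, and 2 had an unadjusted p below 0.05. RRM2, a subunit of ribonucleotide reductase, passed only without Pi pool b (2.26, adjusted p = 0.018).

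The remaining genes of the rule on the DL side were EVA1B, ZNF648 and LOC100519808. EVA1B stood at 5.07, 5.76 and 5.20 in DL and at 2.17, 2.65 and 2.52 in Pi (-2.90 ± 0.27, limma adjusted p = 1.5e-05). ZNF648 differed by -2.06 ± 0.40 and LOC100519808 by -2.02 ± 0.29. Their Pi and DL pools did not overlap.

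On the side higher in Pi, CCL19 had the largest named difference. CCL19, a chemokine that draws lymphocytes and dendritic cells, stood at 2.05, 2.27 and 2.05 in DL and at 6.60, 4.95 and 5.58 in Pi. All DL pools were at background and all Pi pools clearly above it. The difference was 3.59 ± 0.26 (limma adjusted p = 7.8e-07, and 2.6e-08 without Pi pool b), at least 8.52-fold against the background level. That error also draws on the fetal pools, where CCL19 lay between 2.02 and 2.40. The standard deviation of the 3 Pi pools was 0.84, and the adult arrays alone gave a limma adjusted p of 0.11. CD40, a receptor of antigen-presenting cells, whose calling probe set was not its brightest and which was chosen after its values were seen, was at background in DL and at 3.40, 5.28 and 5.73 in Pi. RSAD2, an interferon-induced antiviral protein, stood at 2.58, 3.04 and 4.20 in DL and at 5.93, 5.16 and 4.46 in Pi (1.91 ± 0.36, adjusted p = 0.014, and 0.045 without Pi pool b). It lost the call without DL pool a (adjusted p = 0.065) or Pi pool a (0.13).

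C8B, a component of the terminal complement complex and a product of liver, was at 2.10 in all DL pools and at 4.49, 7.11 and 5.10 in Pi. It was highest in Pi pool b, where the liver transcripts lay. It held without that pool (2.70, limma adjusted p = 4.3e-09), with Pi pools a and c still above background. The error behind this p-value also draws on fetal pools at 2.01 to 2.12, while the 3 Pi pools had a standard deviation of 1.37. In the adult arrays alone the limma adjusted p was 0.23. A second C8B probe set did not pass (1.92, adjusted p = 0.17, and 0.74 without Pi pool b), with 6.60 in Pi pool b, 3.67 in pool c and background in pool a. A2M, the plasma protease inhibitor alpha-2-macroglobulin, stood at 2.32, 3.83 and 3.18 in DL and at 5.33, 5.04 and 5.39 in Pi (2.14 ± 0.39, adjusted p = 0.0098), and was not highest in Pi pool b. Its 2 other probe sets did not pass, and 1 of them stood at 10.38 in Pi pool b against 2.04 to 4.03 in the other 5 pools, the pattern of the liver markers. PON3, a lactonase of plasma lipoproteins, stood at 5.61, 7.15 and 7.32 in DL and at 8.46, 8.93 and 8.61 in Pi (1.97 ± 0.30, adjusted p = 0.0028, and 0.018 without Pi pool b).

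TNC, PAPPA, DSE and GJA1 also held as higher in Pi. TNC, the matrix glycoprotein tenascin-C, stood at 2.53, 4.83 and 2.52 in DL and at 7.07, 5.30 and 6.34 in Pi (2.94 ± 0.60, limma adjusted p = 0.020 with and without Pi pool b). It missed the threshold when DL pool a, DL pool c, Pi pool a or Pi pool c was left out, with adjusted p-values of 0.0997, 0.0663, 0.17 and 0.062. PAPPA, a protease that frees insulin-like growth factors from their binding proteins, was at background in all DL pools and at least 4.32-fold higher in Pi (adjusted p = 0.0041). Its second probe set ran the other way at -0.70 and did not pass (adjusted p = 0.70). DSE, an enzyme of dermatan sulfate synthesis, differed by 1.63 ± 0.30. GJA1, the gap junction protein connexin 43, was the brightest gene in this group, at 9.40, 9.63 and 9.16 in DL and 10.60, 10.42 and 10.54 in Pi (1.13 ± 0.20, adjusted p = 0.0089). Under scaling to the hybridisation controls DSE and GJA1 missed the threshold, with adjusted p-values of 0.059 and 0.063.

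The Pi side of the rule was completed by 5 more genes. ZDHHC12, a palmitoyltransferase, was at background in all DL pools and at least 4.38-fold higher in Pi. ANKRD29 differed by 2.44 ± 0.24, CITED1, a transcriptional coregulator, by 2.12 ± 0.37, DRD2, a dopamine receptor, by 2.07 ± 0.39, and LOC100621559 by 2.35 ± 0.44. LOC100621559 has 11 probe sets, of which 2 passed with all pools. SOCS3, an inhibitor of cytokine signalling, held but was left out by the rule, since its pools overlapped. It was at background in DL and in Pi pool b (2.14) and at 6.59 and 6.04 in Pi pools a and c, so that its difference grew from 2.82 to 4.21 without Pi pool b. MYBL2, a transcription factor of proliferating cells, was at 2.26 or below in DL and at 5.45, 5.76 and 5.15 in Pi. It passed with all pools, without each pool in turn and in the adult arrays alone (adjusted p = 0.025), and was named after its values were seen, since another probe set of the gene was brighter.

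Some of these 30 calls rested on single pools other than Pi pool b. Leaving out Pi pool a ended those on TNC, LOC100621559, A2M, CITED1, RSAD2, GJA1, ART5, NSUN3, ZUFSP, SLC26A11, TIPIN and ZNF648. Leaving out Pi pool c ended those on TNC, ZDHHC12, DRD2, NSUN3, SLC26A11, TIPIN and COMMD6. Leaving out DL pool a ended those on TNC, ZDHHC12, RSAD2, NSUN3, ZUFSP, MAD2L1, SLC26A11, TIPIN and COMMD6, and leaving out DL pool c ended those on TNC and SLC26A11. The other 14 of the 30, CCL19, C8B, UBE2C, PAPPA, ANKRD29, PON3, DSE, EIF1AY, CASQ2, MARCH5, SLC22A3, EVA1B, TFRC and LOC100519808, passed without each adult pool in turn.

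**Figure D3:**
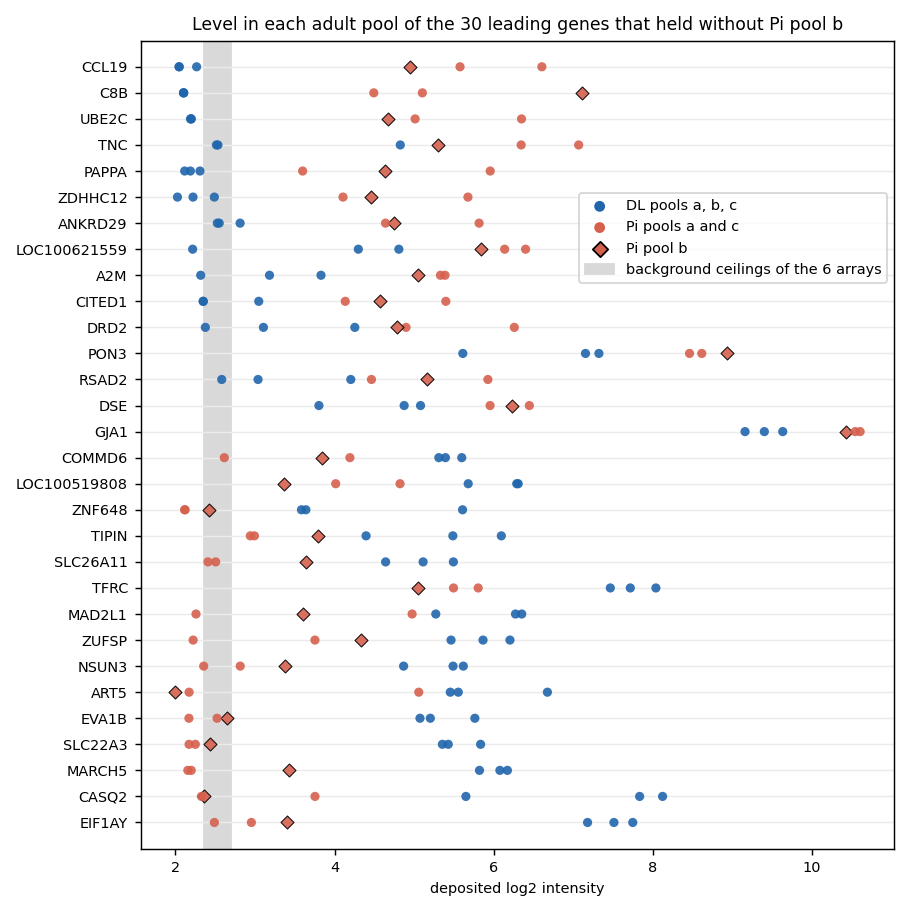
Deposited log2 intensity (horizontal axis) of the 30 leading genes that held, in each adult pool. Blue points are DL pools, red points are Pi pools, the outlined diamond is Pi pool b and the grey band spans the background ceilings of the 6 arrays. No gene has overlapping breeds, and in ART5 Pi pool c at 5.06 comes close to the lowest DL pool at 5.45.

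Calls on 34 genes were made with all pools and lost without Pi pool b. ST3GAL3, a sialyltransferase, was at 6.02, 6.49 and 5.88 in DL and at background in all Pi pools, at 2.57, 2.31 and 2.36. It was at least 11.9-fold lower in Pi, yet its adjusted p rose from 0.020 to 0.086 without Pi pool b, while the difference stayed at -3.67 and the adult arrays alone gave 0.025. SRPX2, a secreted protein of vessels and neurons, was at background in all Pi pools and at least 4.04-fold lower there. IQCC was lower in Pi by -2.43 and VMO1 by -2.88. MRC1, the mannose receptor of macrophages, was higher by 2.59, PGLYRP2, a peptidoglycan-degrading enzyme made in liver, by 2.47, and GGH, which trims folate polyglutamates, by 2.35. In MBNL3, PPP1R21 and PAG6 the difference fell from 2.78, 2.31 and 2.25 to 1.95, 1.58 and 1.88 without Pi pool b, and DL was at background in all pools in PPP1R21 and PAG6, which were at least 4.23-fold and 3.44-fold higher in Pi. All 10 of these genes also missed the threshold without at least 1 pool other than Pi pool b.

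A further 24 genes passed only when Pi pool b was left out. ALB had the largest difference, at -4.99 (limma adjusted p = 0.017), with 8.07 to 9.97 in DL and 2.19 and 6.02 in Pi pools a and c. HAMP, the liver hormone hepcidin that controls iron export, passed likewise at -1.67 (adjusted p = 0.022), with 5.97, 6.25 and 6.50 in DL, 3.81 and 5.33 in Pi pools a and c and 9.22 in Pi pool b. CLN3, a lysosomal protein (-4.22), BDH1, an enzyme of ketone metabolism (-3.43), DYNC1I1 (-2.92), SMARCA1 (-2.85), ZNF3 (-2.73), P2RY2, a nucleotide receptor (-2.71), and PLIN3, a lipid droplet protein (-2.58), were lower in Pi without that pool. ACACA, the enzyme that commits carbon to fatty acid synthesis (2.67), and ENOSF1 (2.37) were higher. ACACA was at background in Pi pool b (2.21), as in the DL pools.

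Few genes of the contractile machinery passed. None of 9 fast-fibre genes passed or had an unadjusted p below 0.05, and their median difference was 0.01 against -0.01 over all probe sets. Their levels lie near the top of the quantile-normalised scale, where differences can be compressed, so these values do not show that the breeds were alike. MYH2, a fast myosin, stood at 15.39 to 15.54 in DL and 15.63 to 15.72 in Pi, and did not pass. Of 11 slow-fibre genes, CASQ2 alone passed. MYH7, the slow myosin, was at 15.49 to 15.60 in DL and 15.40 to 15.45 in Pi (adjusted p = 0.99). PLN, phospholamban, which restrains the calcium pump of slow fibres, had values of 11.08 to 12.07 in DL and 10.04 to 10.37 in Pi, a difference of -1.28 ± 0.78 that did not pass (0.69). In 6 of the 11 slow-fibre genes all DL pools were above all Pi pools, against 2350 of all 23999 probe sets.

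Calcium release and Z-disc genes gave 1 call. None of 7 measured genes of calcium release passed or had an unadjusted p below 0.05, RYR1 among them at 14.04 to 14.69 in DL and 14.13 to 14.50 in Pi. Of 22 scaffold and Z-disc genes, PDLIM5 passed as lower in Pi (-0.81 ± 0.18, limma adjusted p = 0.033), and 8 had an unadjusted p below 0.05. Of 5 embryonic sarcomere isoforms, ACTC1, the cardiac actin, passed as lower in Pi (-1.28 ± 0.29, adjusted p = 0.043). Of 7 myogenic factors, SIX4 passed as lower in Pi, with 8.75, 8.58 and 8.55 in DL and 7.31, 7.30 and 7.48 in Pi (-1.27 ± 0.25, adjusted p = 0.016). All 3 lost the call without Pi pool b, with adjusted p-values of 0.095, 0.15 and 0.072.

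Calls among genes of energy metabolism, each represented by its brightest probe set, were few and none held. None of 77 genes of oxidative phosphorylation and the citric acid cycle passed, and 5 had an unadjusted p below 0.05. In 23 of them the DL pools were all above the Pi pools and in 0 the reverse, against 2350 and 1824 of all probe sets, and the median difference was -0.10. The largest of these gaps were those of SUCLA2, a subunit of succinyl-CoA synthetase, at -0.90 ± 0.31, and NDUFC1, a subunit of complex I, at -0.89 ± 0.28. NDUFA1, another subunit of complex I, held as higher in Pi by a probe set that was not its brightest (2.93 ± 0.51). Its limma adjusted p was 0.0077, and 0.047 without Pi pool b. This probe set was chosen after its values were seen. Of 35 genes of fatty acid uptake and oxidation, 2 passed as lower in Pi (5.71%, against 0.95% of all probe sets). All DL pools were above all Pi pools in 13 of them and the reverse in 2, against the same 2350 and 1824 of all probe sets. ACADL, a long-chain acyl-CoA dehydrogenase, stood at 9.62, 10.22 and 9.28 in DL and at 8.39, 8.18 and 8.39 in Pi (-1.39 ± 0.32, limma adjusted p = 0.049). DECR1, which helps oxidise unsaturated fatty acids, differed by -1.11 ± 0.24 (0.030). Both missed the threshold without Pi pool b, at 0.17 and 0.089.

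Of 27 genes of glycolysis and glycogen metabolism, LDHB alone passed. LDHB, the lactate dehydrogenase subunit of oxidative tissue, stood at 12.50, 12.81 and 12.23 in DL and at 11.91, 11.72 and 11.98 in Pi (-0.65 ± 0.15, limma adjusted p = 0.042, and 0.18 without Pi pool b). None of 9 genes of creatine kinase and muscle buffering passed or had an unadjusted p below 0.05. None of 23 genes of protein degradation passed, and 2 had an unadjusted p below 0.05.

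Among growth factor genes IGF2, an imprinted growth factor with a known regulatory variant in pig breeds, passed as higher in Pi. Its brightest probe set stood at 11.30, 11.38 and 11.94 in DL and at 12.60, 12.75 and 12.70 in Pi, a difference of 1.14 ± 0.22 (limma adjusted p = 0.018) and a 2.21-fold higher level. The groups did not overlap, and the difference was 1.11 without Pi pool b, where the adjusted p was 0.078. Leaving out any other single pool but DL pool c also ended the call, with differences of 1.02 to 1.18. Of the 12 other IGF2 probe sets, 4 passed at 1.20 to 1.44, and 11 of the 12 differences were positive, from 0.04 to 2.72. No other of the 23 measured growth control genes passed. MSTN, myostatin, a brake on muscle growth, overlapped between the breeds at 4.82, 5.43 and 6.65 in DL and 4.23, 5.80 and 3.04 in Pi. A panel of 45 genes known from work on pig breeds, growth and meat quality gave 2 calls, IGF2 and LDHB, and neither held.

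**Figure D4:**
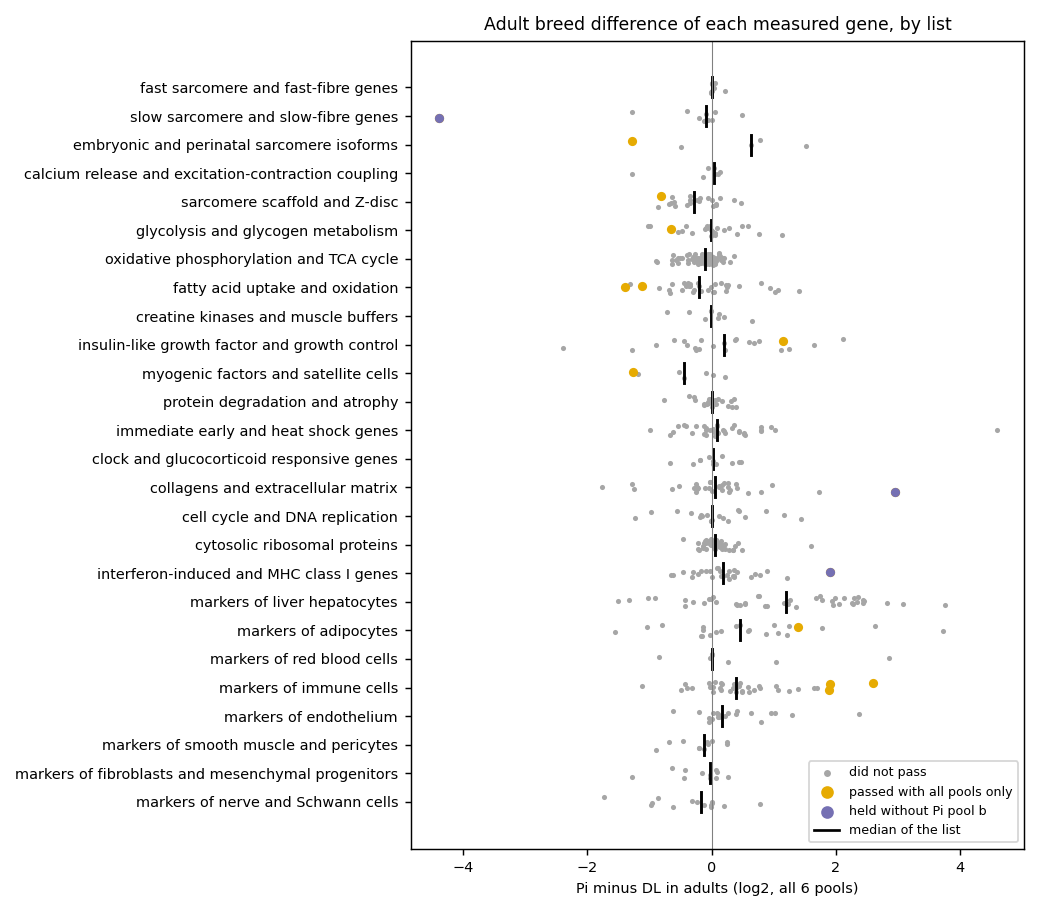
Adult breed difference of each measured gene (horizontal axis, Pi minus DL, log2, all 6 pools) by gene list. Grey points did not pass, yellow points passed with all pools only, purple points held without Pi pool b and the black tick is the median of the list. The 3 purple points are CASQ2 at -4.39, TNC at 2.94 and RSAD2 at 1.91, and the liver list has the highest median at 1.19, which is -0.20 without Pi pool b.

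Of 23 genes of fat cells and lipid synthesis, ELOVL6 passed as higher in Pi, with 8.09, 8.25 and 7.84 in DL and 9.13, 9.73 and 9.47 in Pi (1.38 ± 0.25, limma adjusted p = 0.010, and 0.064 without Pi pool b). In fetal pools ELOVL6 was also higher in Pi at 63 dpc (0.67, limma adjusted p = 0.011) and 91 dpc (1.14, 7.6e-04). At 35 dpc its difference of 0.21 did not pass. On this list 9 of the 23 had all Pi pools above all DL pools and 0 the reverse, against 1824 and 2350 of all probe sets. SCD, the stearoyl-CoA desaturase, had values of 9.35 to 9.80 in DL and 10.48 to 10.72 in Pi (adjusted p = 0.064), and FASN, the fatty acid synthase, 7.64 to 8.35 and 9.14 to 9.65 (0.12). PPARG, the regulator of fat cell formation, was at 2.34, 2.60 and 2.32 in DL, at background in pools a and c and within rounding of the ceiling in pool b, and at 6.30, 5.97 and 6.15 in Pi. Its difference of 3.72 ± 0.87 had an adjusted p of 0.051 with all arrays, and of 0.016 in the adult arrays alone. The fat cell marker ADIPOQ, at means of 4.85 and 6.06, did not pass (0.73). The mean level of the list was 6.60, 6.50 and 6.62 in DL and 6.78, 7.59 and 7.07 in Pi, highest in Pi pool b, and its median difference was 0.46 with that pool and 0.07 without it. Its part in these results was not tested.

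Immune cell markers were higher in Pi by 3 calls of 39 (7.69%, against 0.95% of all probe sets), none of which held. PTPRC, the CD45 of white blood cells, stood at 3.30, 5.49 and 3.53 in DL and at 5.26, 6.37 and 6.34 in Pi (1.88 ± 0.43, limma adjusted p = 0.046). CCL21, a chemokine of lymphatic vessels that binds the same receptor as CCL19, stood at 4.98, 4.82 and 6.44 in DL and at 6.88, 7.58 and 7.50 in Pi (1.91 ± 0.42, 0.033). Together with MRC1 they missed the threshold without Pi pool b, at 0.17, 0.14 and 0.12. In the list 10 markers had all Pi pools above all DL pools and 1, CCR7, the reverse. Of all 23999 probe sets, 1824 and 2350 did so. The mean level of the list was 5.05 to 5.26 in DL and 5.64 to 5.73 in Pi, and its summed linear intensity 5855 to 7231 in DL and 8116 to 8889 in Pi. CCL19, CD40 and MYBL2 were likewise higher in Pi. Across Pi pools a, b and c the list mean was 5.73, 5.67 and 5.64. In that order CCL19 stood at 6.60, 4.95 and 5.58 and CD40 at 3.40, 5.28 and 5.73. MYBL2 stood at 5.45, 5.76 and 5.15. The part of immune cell content in the results on these 3 genes was not tested. Of 29 interferon-induced genes RSAD2 passed with all pools, and MX2 joined it without Pi pool b (1.56, adjusted p = 0.00065).

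By brightest probe set, no gene passed on lists of 20 endothelial, 11 smooth muscle, 11 fibroblast, 14 nerve and 7 red blood cell markers. Between 1 and 2 on each had an unadjusted p below 0.05. MBP, on the nerve list, held as lower in Pi by a probe set that was not its brightest (-1.89 ± 0.25). Its limma adjusted p was 8.2e-04, and 0.0063 without Pi pool b, and it passed without each adult pool in turn. This probe set was chosen after its values were seen. Of 32 collagen and matrix genes TNC alone passed. None of 37 immediate early and heat shock genes passed, with 5 at an unadjusted p below 0.05. None of 12 clock and glucocorticoid responsive genes passed, with 0 below it. None of 58 cytosolic ribosomal protein genes passed, with 6 below it. The 3' to 5' differences of the GAPDH control, a sign of RNA integrity, were 0.11 to 0.20 in all 6 adult pools, and those of the actin control were 2.28 to 2.35 in DL and 2.41 to 2.59 in Pi.

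The adult differences were set against those of the fetal stages. At 35, 63 and 91 dpc, 2755 (11.5%), 836 (3.48%) and 684 (2.85%) probe sets differed between the breeds, in groups with a smaller spread than the adults. Of the 142 that held in adults, 9 passed in the same and 8 in the opposite direction at 35 dpc (12% in all). At 63 dpc 5 passed in the same direction and 0 in the opposite (3.52%), and at 91 dpc 10 and 4 (9.86%). The adult breed difference itself was tested against the mean of the 3 fetal breed differences, and 189 probe sets (0.788%) passed, 87 positive and 102 negative, with 2383 at an unadjusted p below 0.05. Of the 142, 116 passed this test and 26 did not. The test contains the same adult difference by which the 142 were selected, so that share is no independent evidence.

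CCL19 lay between 2.02 and 2.40 in the fetal pools, within the range of background. UBE2C lay between 2.09 and 2.98 there, and DL pools a and b at 35 dpc, at 2.98 and 2.89, were above background. TFRC lay between 1.97 and 3.01 in the fetal pools and was high in the adults of both breeds. CASQ2 was brightest in fetal muscle, with a mean of 11.4 in DL and 11.1 in Pi at 63 dpc, and was lower in adults of both breeds. SLC22A3 went from 8.22 in DL and 8.31 in Pi at 63 dpc to 5.54 and 2.28 in adults. It was already lower in Pi at 35 dpc (-0.72, limma adjusted p = 0.041), and its difference of -0.76 at 91 dpc did not pass. IGF2 showed the opposite breed difference at 35 dpc (-0.47, limma adjusted p = 0.0054), and 0.02 and 0.09 at 63 and 91 dpc, which did not pass. The adult difference of IGF2 exceeded the fetal mean by 1.26 ± 0.24 (adjusted p = 0.015).

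**Figure D5:**
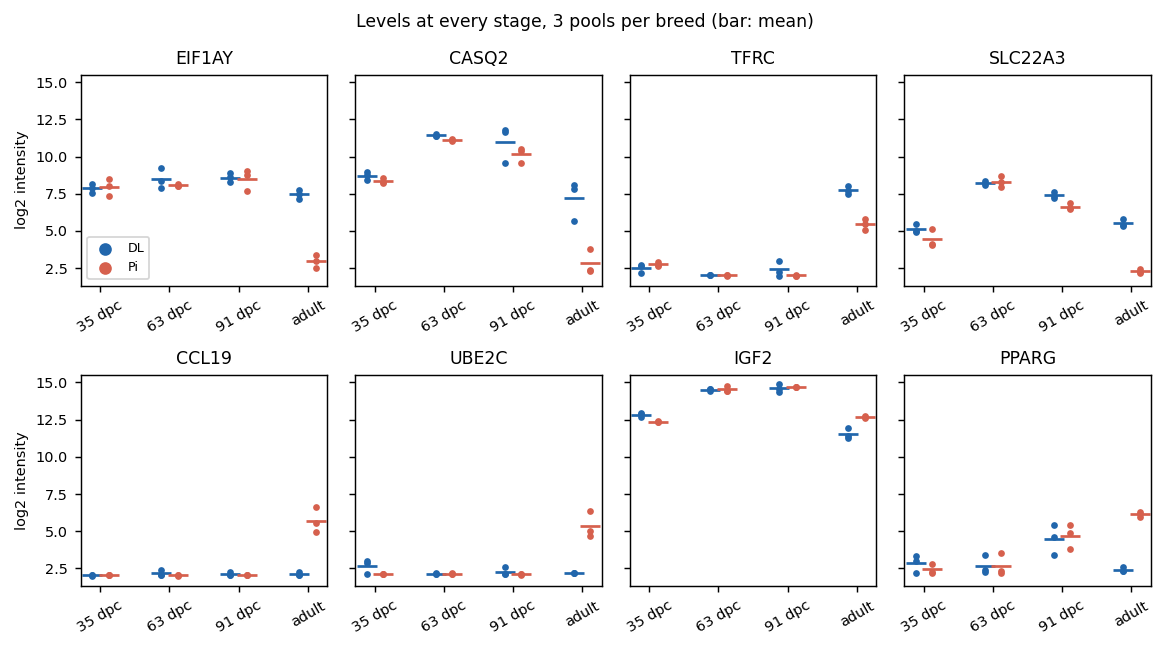
Deposited log2 intensity (vertical axis) of 8 genes in every pool at 35, 63 and 91 dpc and in adults. Each point is a pool, the bar is the mean of 3 pools, blue marks DL and red marks Pi. EIF1AY lies between 7.35 and 9.21 in all fetal pools and at 2.49 to 3.41 in adult Pi alone, and PPARG lies at 2.32 to 2.60 in adult DL and 5.97 to 6.30 in adult Pi.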

How the data were processed

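The authors deposited 1 normalised log2 intensity per probe set and array, made from 500 ng of total RNA per pool. Scanning used GCOS 1.1.1, per the submitters' processing notes. The sources used here do not name the summarisation or normalisation method. Base 2 was inferred from the range of 1.60 to 16.1, and all 24 columns hold the same sorted values, as quantile normalisation gives, so shifts common to most genes are not visible. No 2 arrays were identical. Arrays give no counts, and their number limits the precision.

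Group means were fitted to all 24 arrays with limma 3.58.1 in R 4.3.3 (lmFit, eBayes), with 1 arrayWeights variance per group, 16 residual degrees of freedom and Benjamini-Hochberg adjustment over 23999 probe sets. The same fit was made without adult Pi pool b. Pool letters do not pair the breeds: deviations of same-letter adult pools correlated at -0.02, -0.03 and 0.05. The fits were tested on simulated data. Figures were drawn with matplotlib 3.10.9.

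Gene names come from GEO's platform annotation: 10069 probe sets have 1 symbol, 198 several and 13732 none. The probe set brightest over the 6 adult arrays stands for a gene. Symbols were matched to RefSeq (Sscrofa11.1) for chromosomes only. Named genes are the 15 largest differences in each direction that held with no overlap between pools, the 10 largest lost and the 10 largest gained without Pi pool b, the largest of each of 27 gene lists, and the 5 largest in each direction against the fetal stages; other names are marked where they occur or complete a count. Members and lists were chosen with earlier results of these data known.

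The background level of an array is the highest of 23 tag and TrpnX control probe sets. It was chosen after control values were seen, because the Bacillus controls intended for it were well above background. "At least" folds set a breed's mean against that level. Alternatives were equal weights, a weight per array, adult arrays only, trend and robust moderation, hybridisation control scaling, a filter on low values, a replicate block by pool letter, and each adult pool left out.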

Additional observations from a re-analysis of the deposited data

Results flagged for a closer look

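The breed difference was not the same in adults and fetuses for 189 probe sets by a test of that difference in limma. The genes named for it on the Pi side were CCL19, whose adult difference exceeded the mean fetal one by 3.65 on the log2 scale, C8B (3.46), UBE2C (3.39), TNC (3.13) and ZDHHC12 (2.61). On the DL side they were EIF1AY (-4.38), ST3GAL3 (-4.38), CASQ2 (-3.89), MARCH5 (-3.03) and EVA1B (-2.83). The fetal differences of ST3GAL3 changed sign, with -1.53 at 35 dpc (limma adjusted p = 0.0064) and 1.93 at 63 dpc (0.015). At 91 dpc its difference was 1.59, which did not pass, and in adults it was -3.72. The call on CASQ2 was lost when any adult pool other than DL pool c was left out, with adjusted p-values of 0.056 to 0.11, and that on TNC when any adult pool other than DL pool b or Pi pool b was. ZDHHC12 lost it without DL pool a (0.068) or Pi pool c (0.087), and ST3GAL3 without Pi pool a (0.054).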

How the results depend on the processing

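The main counts were 228 probe sets that differed between adult breeds, 142 that held without Pi pool b and 189 whose adult difference departed from the fetal mean. With equal weights for all arrays they were 1519, 1198 and 953, and all 228 and all 142 passed there. The adult arrays alone gave 21 and 13. With the pool letter as a replicate block they were 98, 49 and 61, and 84 of the 228 and 73 of the 142 passed; the letters are only names that the samples share. A filter on low values, which left 15612 probe sets, gave 290 for the contrast with the fetal stages. A weight per array, trend and robust moderation and hybridisation control scaling stayed within 1.5 times of each count. Leaving out 1 adult pool gave 177 to 285, 119 to 176 and 132 to 253; where Pi pool a or c was left out together with pool b, the lone Pi pool was assumed to vary like the other adult pools. No called value changed sign in any setting.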
